A study of Caenorhabditis elegans with 6 samples.

Results

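The genes described here encode the protein-degrading enzymes and the acid-making machinery of the lysosome in Caenorhabditis elegans, and they were read in whole L4 larvae grown on control or let-607 RNAi bacteria. Members were taken by name, with earlier results of these data known. They are every gene whose symbol begins with asp-, cpr-, cpl-, cpz- or vha-, together with unc-32, lmp-1, lmp-2, scav-3, cup-5, laat-1 and ctns-1. This gave 55 of the 46778 genes with values. Of these, 17 were aspartic proteases, 11 were cysteine cathepsins, 21 were subunits or accessory proteins of the proton pump and 6 were lysosomal membrane or transport genes.

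Lysosomes, and in the worm intestine the related gut granules, degrade proteins with proteases that work best at acid pH. Aspartic proteases of the cathepsin D type and cysteine proteases of the papain family, which include cathepsins B, L and Z, cut proteins inside these compartments, and in nematodes many of them also act in the gut lumen on food. The acid is made by the vacuolar proton pump (V-ATPase), whose cytosolic V1 sector splits ATP and whose membrane V0 sector carries the protons. Membrane proteins then hold the compartment together and export the amino acids that digestion releases.

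The study depleted let-607, which encodes a CREBH-family transcription factor, by feeding. All worms were of the N2 wild-type strain, grew at 20 °C on HT115 bacteria and were harvested as synchronized L4 larvae. The 3 control libraries came from worms fed bacteria with the empty vector L4440, and the 3 others from worms fed let-607 RNAi bacteria, which per the study's methods were diluted with vector bacteria. Feeding RNAi reaches many tissues, and the libraries are of whole animals. The labels do not say whether the 3 libraries of a group came from separate cultures, so the p-values measure the spread between these libraries. Because whole worms were used, fewer cells of a type and less RNA per cell cannot be told apart.

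Gene positions are of build WBcel235. The values are FPKM (fragments scaled by transcript length and library size), which summed to 1400487 to 1485099 per library. The number of fragments is unknown. The mRNA of let-607 (chromosome I, 6574004-6585510) stood at 69.06, 57.13 and 57.28 FPKM in the control libraries. Those labelled let-607 RNAi had 70.96, 76.21 and 77.94 FPKM. It was thus not lower in the latter (log2 fold change 0.30, SE 0.08, limma adjusted p = 0.0340), and the directions below rest on the labels, since "let-607 RNAi" here means the libraries labelled so. Over the 15453 genes tested, the median log2 fold change was 0.12, so the median gene was slightly above its control level, although the summed FPKM of the let-607 RNAi libraries was lower (1400487 to 1429914 against 1448934 to 1485099 in control). The median was 0.17 with TPM, 0.00 with median-of-ratios scaling and -0.03 with quantile normalization. To pass, a gene needed a change of more than 2-fold with an adjusted p under 0.1. By this rule 579 genes rose (3.75% of those tested) and 216 fell (1.40%). The higher share of these calls moved from 72.8% to 77.0% with TPM, to 63.1% with median-of-ratios scaling and to 58.4% with quantile normalization.

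Protease mRNAs moved apart in both directions while those of the proton pump hardly moved. Among the 48 members that were tested, 5 fell, all of them proteases (asp-13, asp-14, cpr-6, cpr-8 and cpz-1), and 2 rose, also proteases (asp-17 and cpr-3). None of the 21 pump genes and none of the 6 membrane genes passed. Of all genes tested 1.40% fell and 3.75% rose by the same rule. The 2 members that rose out of 48 are thus near the background share. Shares this small also leave few passing genes to be found among 21 or 6. The other 7 members (asp-7, asp-9, asp-15, asp-16, asp-18, asp-19 and cpr-2) had a mean below 0.5 FPKM and were not tested. Of these, asp-18 and asp-19 were listed at 0 in all 6 libraries and asp-9 reached the highest single value, 0.66 FPKM in control 2.

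**Figure D1:**
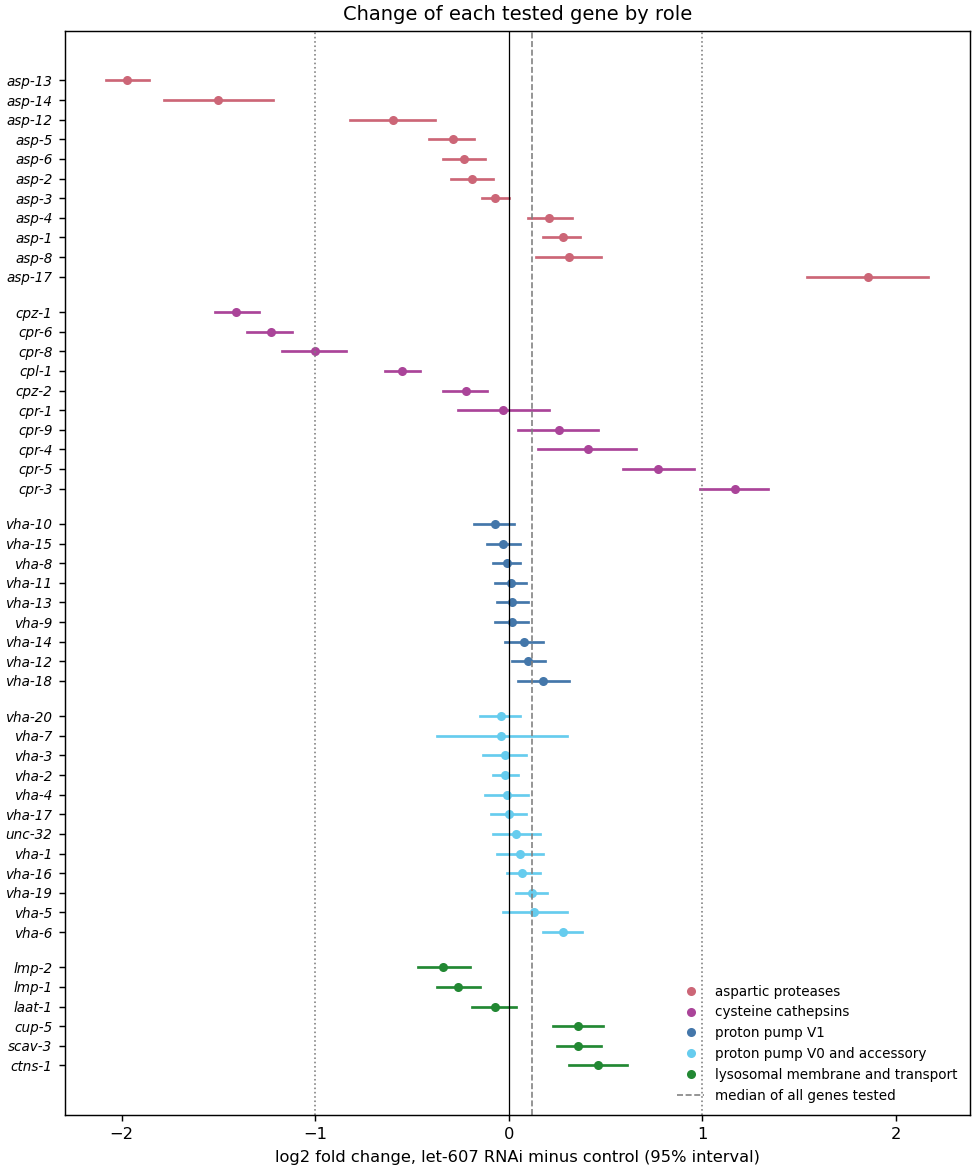
Log2 fold change (let-607 RNAi minus control, horizontal axis) of each of the 48 tested genes with its 95% interval, grouped by role. The dashed line is the median of all genes tested (0.12), and the dotted lines mark a 2-fold change. The proteases run from -1.97 to 1.86, whereas the 21 proton pump genes lie between -0.07 and 0.28.

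At any size of change, 15 of the 48 tested members were higher and 13 lower with an adjusted p under 0.1, where the background was 31.7% of all genes higher and 11.4% lower. This balance turned with median-of-ratios scaling, which gave 9 members higher and 26 lower beside a background of 18.8% higher and 19.4% lower. The 2 groups of libraries did not overlap for 30 of the 48, beside a background of 49.1%. Of the 21 tested proteases, 8 were higher and 11 lower, with no overlap for 20, and with median-of-ratios scaling 5 were higher and 12 lower. For the pump the same counts were 4 higher, none lower and no overlap for 5 of 21. The SD of the log2 fold changes was 0.91 over the proteases, 0.09 over the pump genes and 0.70 over all genes tested. These spreads are given as descriptions, since the genes of a role are not replicates.

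Among the aspartic proteases, asp-13 and asp-14 fell, asp-17 rose, and the most abundant members shifted by much less. The gene asp-13 (chromosome V, 8641602-8643193) was at 265.53, 286.76 and 263.95 FPKM in control worms and at 68.35, 71.88 and 67.66 FPKM in let-607 RNAi worms. The 3 let-607 RNAi libraries lay close together far under the control level. The log2 fold change was -1.97 (SE 0.05, adjusted p = 3.00e-06, limma with Benjamini-Hochberg adjustment), the furthest from 0 among the members.

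The gene asp-14 (chromosome X, 6444185-6446664) was at 372.96, 330.97 and 348.67 FPKM in control and at 150.06, 113.13 and 111.68 FPKM in let-607 RNAi libraries. Replicate 1 of the let-607 RNAi group was the highest of its group but stayed far under every control library. The log2 fold change was -1.50 (SE 0.12, limma adjusted p = 0.000243).

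The gene asp-17 (chromosome V, 19035723-19037322) went the other way. It was scarce in control worms, at 6.27, 8.89 and 7.64 FPKM, and stood at 26.82, 30.05 and 25.88 FPKM after let-607 RNAi. Every library of the latter group was above every control library, and the log2 fold change was 1.86 (SE 0.13, limma adjusted p = 0.000158). It lies 12240 bases from asp-1 on the same strand, with asp-15 and asp-16 between them. The latter 2 were at or near 0 in every library, with no value above 0.10 FPKM.

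The gene asp-1, the most abundant aspartic protease and a product of the intestine, was at 3803.03, 3734.33 and 3610.03 FPKM in control and at 4712.30, 4473.87 and 4339.75 FPKM in let-607 RNAi libraries. All 3 let-607 RNAi values were above all 3 control values, by 0.28 on the log2 scale (SE 0.04, limma adjusted p = 0.00265), which is below the 2-fold threshold. Over the alternatives the difference ranged from 0.16 to 0.40. With no filter on low values the adjusted p was 0.420. The log2 ratio of asp-17 to asp-1 within a library went from -8.95 ± 0.27 to -7.35 ± 0.12 (SD, n = 3 each, two-sided exact permutation p = 0.1, the smallest that 3 against 3 allows).

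The gene asp-3, which with asp-4 is required for necrotic death of neurons in the worm, was at 1764.91, 1836.70 and 1763.83 FPKM in control and at 1697.67, 1703.32 and 1711.31 FPKM in let-607 RNAi libraries. The groups were separate by a narrow margin, and the log2 fold change of -0.07 had an adjusted p of 0.113 (limma). It became 0.03 with quantile normalization and -0.19 with median-of-ratios scaling (limma adjusted p = 0.00613). The cathepsin D homologue asp-4 was at 359.74, 357.78 and 336.85 FPKM in control and at 413.06, 424.28 and 384.66 FPKM after let-607 RNAi, a difference of 0.21 on the log2 scale (limma adjusted p = 0.0164). With median-of-ratios scaling it was 0.09 (limma adjusted p = 0.196), so differences of this size in asp-3 and asp-4 depended on the scaling.

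The gene asp-6 was at 1515.16, 1531.21 and 1448.68 FPKM in control and at 1359.33, 1243.99 and 1241.10 FPKM after let-607 RNAi, lower by 0.23 on the log2 scale (limma adjusted p = 0.0103, and 0.163 with quantile normalization). The gene asp-2 was at 605.35, 610.70 and 604.23 FPKM against 562.84, 529.12 and 503.82 FPKM, lower by 0.19 (limma adjusted p = 0.0176). In each the 3 let-607 RNAi values lay under the 3 control values. The other 3 tested aspartic proteases were asp-5 at -0.29, asp-8 at 0.31 and asp-12 at -0.60 on the log2 scale, all with separate groups and none past 2-fold. Of these, asp-5 and asp-12 lie beside asp-6 on chromosome V, 273 to 3448 bases from each other, and all 3 were lower.

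The median log2 fold change of the 11 tested aspartic proteases was -0.19, which is -0.32 when the median of all genes is taken off. Their summed FPKM hardly differed, at 9565 ± 220 in control and 9472 ± 347 in let-607 RNAi libraries (SD, n = 3 each), and the groups overlapped. Within that sum the share of asp-1 went from 38.8% ± 0.355 to 47.6% ± 0.251, and without asp-1 the sum was 5849 ± 133 against 4963 ± 159 FPKM. The sum therefore held level while its makeup moved toward asp-1.

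**Figure D2:**
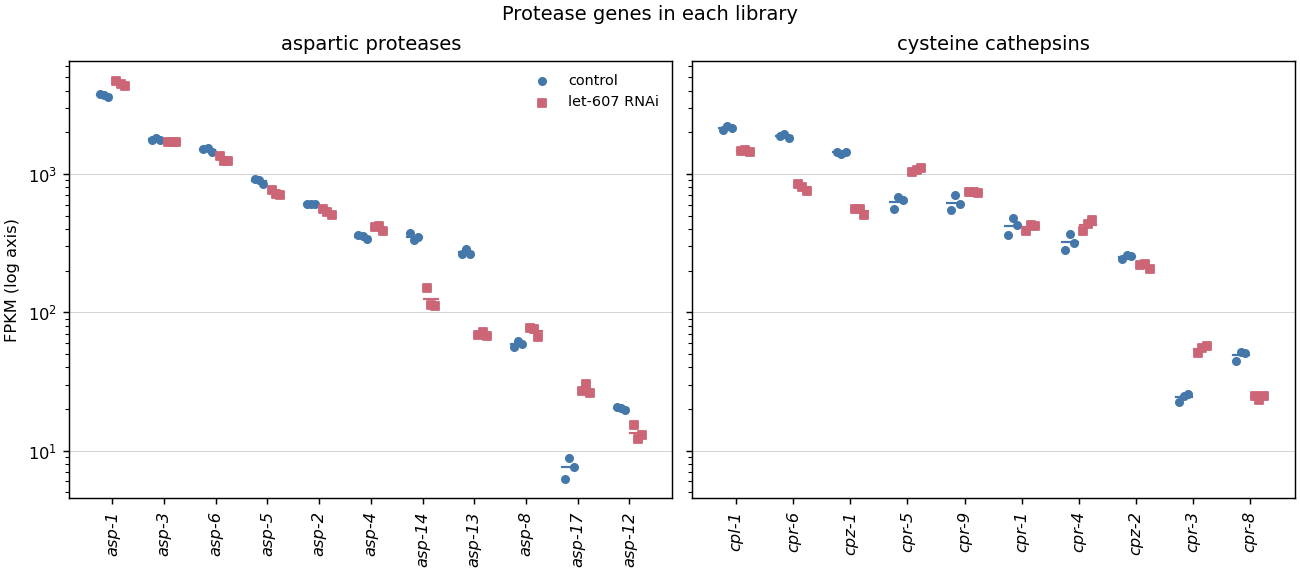
FPKM (log axis) of the 11 tested aspartic proteases (left) and 10 tested cysteine cathepsins (right) in each library, ordered by mean level. Circles are the 3 control and squares the 3 let-607 RNAi libraries, and short lines are group means. The squares of cpr-8, cpr-6, cpz-1, asp-14 and asp-13 sit far under the circles, those of asp-17 and cpr-3 far above, and the groups of cpr-1 overlap.

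Among the cysteine cathepsins, cpz-1, cpr-6 and cpr-8 fell, cpr-3 rose, and cpr-5 was higher by less than 2-fold. The cathepsin Z gene cpz-1, which is needed for molting, lies on chromosome I (2686640-2689429). It was at 1450.65, 1404.75 and 1452.53 FPKM in control and at 562.35, 557.21 and 505.66 FPKM after let-607 RNAi, with no overlap. The log2 fold change was -1.41 (SE 0.05, limma adjusted p = 8.59e-06). Its relative cpz-2 was at 241.51, 260.80 and 253.99 FPKM against 221.35, 222.40 and 205.31 FPKM, lower by 0.22 on the log2 scale (limma adjusted p = 0.0134). The log2 ratio of cpz-1 to cpz-2 within a library went from 2.51 ± 0.08 to 1.32 ± 0.02 (SD, n = 3 each, exact permutation p = 0.1).

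The cathepsin B-like gene cpr-6 (chromosome X, 6607207-6609045) was at 1887.30, 1938.97 and 1830.17 FPKM in control and at 844.06, 804.73 and 756.22 FPKM after let-607 RNAi. The highest let-607 RNAi value was less than the lowest control value by a wide gap, and the log2 fold change was -1.23 (SE 0.05, limma adjusted p = 1.39e-05). The gene cpl-1, the worm's cathepsin L and required for embryos to process yolk, was the most abundant cysteine cathepsin in both groups. It was at 2070.80, 2223.02 and 2150.48 FPKM in control and at 1471.00, 1500.95 and 1432.40 FPKM after let-607 RNAi. The groups were separate and the log2 fold change was -0.55 (SE 0.04, limma adjusted p = 0.000128), short of 2-fold.

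The genes cpr-5 and cpr-8 lie 566 bases apart on chromosome V, on opposite strands and with their start sites facing each other (cpr-5 at 1132598-1134036 on the minus strand, cpr-8 at 1134602-1139182 on the plus strand). Their levels went in opposite directions. The gene cpr-5 was at 555.08, 681.93 and 650.97 FPKM in control and at 1030.64, 1076.53 and 1103.81 FPKM after let-607 RNAi, higher by 0.77 on the log2 scale (SE 0.08, limma adjusted p = 0.000651). Its neighbour cpr-8 was at 44.35, 51.30 and 50.79 FPKM in control and at 24.81, 23.14 and 24.80 FPKM after let-607 RNAi (log2 fold change -1.0, SE 0.07, limma adjusted p = 0.000151). That of cpr-8 lay just past the 2-fold threshold. It ended inside it with TPM, with a pseudocount of 1 and without control 2, control 3 or let-607 RNAi 2, with estimates of -0.95 to -0.98. The log2 ratio of cpr-5 to cpr-8 went from 3.69 ± 0.04 to 5.46 ± 0.08 (SD, n = 3 each, exact permutation p = 0.1).

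The gene cpr-3 (chromosome V, 15296834-15298700) was at 22.33, 24.70 and 25.57 FPKM in control and at 50.46, 55.52 and 57.31 FPKM after let-607 RNAi. Every let-607 RNAi library was above every control library, and the log2 fold change was 1.17 (SE 0.07, limma adjusted p = 0.000101). The gene cpr-4, which encodes a secreted cathepsin B-like protease, was at 284.36, 369.53 and 316.84 FPKM against 385.02, 435.42 and 461.27 FPKM, higher by 0.41 (SE 0.11, limma adjusted p = 0.0273, and 0.102 with median-of-ratios scaling). Its groups were separate, although control 2 came near to let-607 RNAi 1.

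The gut cysteine protease gene cpr-1 was at 363.13, 477.67 and 430.72 FPKM in control and at 390.30, 429.37 and 419.83 FPKM after let-607 RNAi. It was the only tested protease whose groups overlapped, with a log2 fold change of -0.03 (95% interval -0.26 to 0.21, limma adjusted p = 0.846). The sign of this value turned with TPM (0.02). The last tested cysteine cathepsin, cpr-9, was higher by 0.26 (limma adjusted p = 0.0613).

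The median log2 fold change of the 10 tested cysteine cathepsins was -0.12, or -0.25 relative to all genes. Their summed FPKM was lower in every let-607 RNAi library, at 7467, 8138 and 7765 in control and 5721, 5843 and 5693 after let-607 RNAi, a ratio of 0.738. The share of cpr-6 in this sum went from 24.2% ± 0.920 to 13.9% ± 0.749 and that of cpz-1 from 18.5% ± 1.1 to 9.42% ± 0.485 (SD, n = 3 each). The share of cpr-5 went from 8.07% ± 0.547 to 18.6% ± 0.705, and that of cpl-1 from 27.6% ± 0.229 to 25.5% ± 0.313. By level cpr-5 moved from rank 4 to rank 2 among the cysteine cathepsins, and the log2 ratio of cpr-5 to cpr-6 changed sign, from -1.59 ± 0.15 to 0.42 ± 0.13 (exact permutation p = 0.1).

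**Figure D3:**
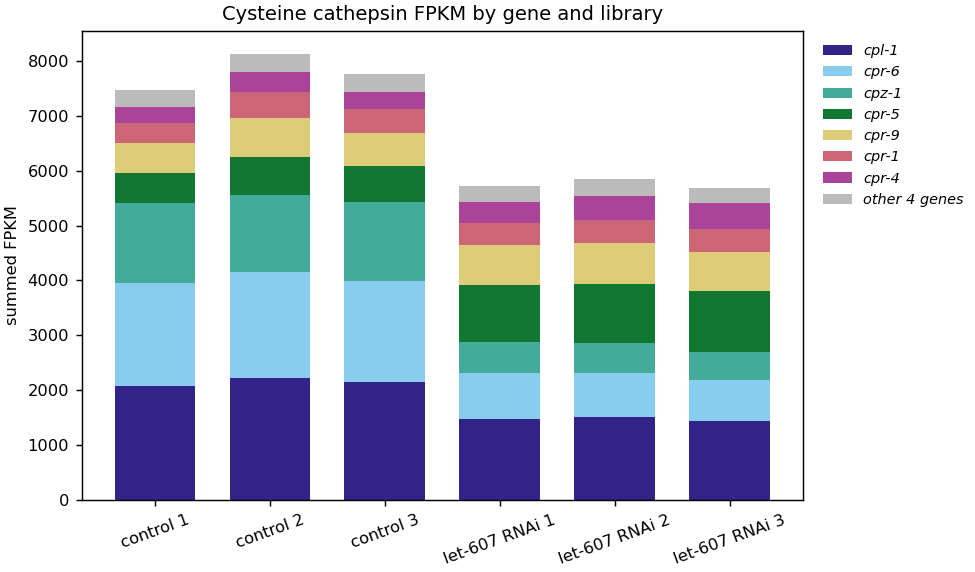
Summed FPKM of the 11 cysteine cathepsins in each of the 6 libraries, with the 7 most abundant genes stacked in colour and the other 4 in grey. The 3 control bars reach 7467 to 8138 and the 3 let-607 RNAi bars 5693 to 5843, with narrower bands for cpr-6 and cpz-1 and a wider band for cpr-5.

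The proton pump genes were flat by comparison. All 21 were tested and their log2 fold changes ran from -0.07 (vha-10, a G subunit of V1) to 0.28 (vha-6). Their 95% intervals all lay between -0.37 and 0.38, so changes of 2-fold lie outside the interval of each subunit. The summed FPKM of the pump was 7630, 7899 and 7720 in control and 7899, 7871 and 7811 after let-607 RNAi, and the groups overlapped. The median was 0.02, which is -0.11 relative to all genes.

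The 9 V1 genes ran from -0.07 to 0.18. The catalytic A subunit gene vha-13 was at 476 ± 11.7 and then 482 ± 4.69 FPKM, and the E subunit gene vha-8 at 552 ± 7.0 and then 548 ± 5.53 FPKM (SD, n = 3 each). Their log2 fold changes were 0.02 and -0.01. The B subunit gene vha-12 was at 326 ± 11.9 and then 350 ± 3.76 FPKM (log2 fold change 0.10, limma adjusted p = 0.0722, and -0.02 with median-of-ratios scaling), and vha-14, for the D subunit, was at 0.08 (limma adjusted p = 0.180). The F subunit gene vha-9 was at 0.02. The H subunit has a pair of genes, of which the scarce one, vha-18, was at 21.25, 20.47 and 21.36 FPKM against 23.43, 25.13 and 23.09 FPKM (log2 fold change 0.18, limma adjusted p = 0.0441). With median-of-ratios scaling vha-18 was at 0.06 (limma adjusted p = 0.420) and with quantile normalization at 0.02 (limma adjusted p = 0.822).

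The V0 and accessory genes include 4 for the large membrane subunit a, which differ in the tissues that use them. The intestinal gene vha-6, which acts at the apical membrane, was at 276.69, 288.89 and 266.03 FPKM in control and at 331.70, 346.27 and 330.57 FPKM after let-607 RNAi. Its groups were separate and it had the lowest adjusted p of the pump (log2 fold change 0.28, SE 0.04, limma adjusted p = 0.00321). Over the alternatives the difference for vha-6 ranged from 0.16 to 0.33. The widely used and neuronal gene unc-32 was at 137.68, 140.28 and 127.13 FPKM against 136.13, 144.57 and 135.94 FPKM, with overlap (log2 fold change 0.04, limma adjusted p = 0.570, and -0.08 with median-of-ratios scaling).

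The gene vha-5, which serves the epidermis and the excretory canal, was at 66.98, 78.92 and 67.85 FPKM in control and at 76.79, 79.72 and 77.23 FPKM after let-607 RNAi. Control 2 lay among the let-607 RNAi values (log2 fold change 0.13, limma adjusted p = 0.188). The fourth, vha-7, was at 20.10, 22.87 and 16.04 FPKM against 18.51, 17.41 and 21.22 FPKM (log2 fold change -0.04, limma adjusted p = 0.867, and 0.01 with TPM). The log2 ratio of vha-6 to unc-32 was 1.04 ± 0.03 in control and 1.28 ± 0.01 after let-607 RNAi (SD, n = 3 each, exact permutation p = 0.1). For vha-5 over unc-32 the difference was 0.09 with overlap (exact permutation p = 0.200).

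The proteolipid ring genes were level. The most abundant pump gene, vha-2, was at 1108.77, 1112.98 and 1099.32 FPKM in control and at 1096.82, 1084.82 and 1104.45 FPKM after let-607 RNAi (log2 fold change -0.02, limma adjusted p = 0.690). Its near copy vha-3 was at 314.08, 315.65 and 328.87 FPKM against 296.84, 325.60 and 321.46 FPKM (log2 fold change -0.02, limma adjusted p = 0.729). Both encode 161 residues, vha-2 overlaps R10E11.6 on the same strand, and how reads shared by them were divided is not given in the sources used here. Both signs turned to 0.03 with TPM. The ring gene vha-1 was at 0.06 (limma adjusted p = 0.420), vha-17 at -0.00 (limma adjusted p = 0.988) and the accessory gene vha-19 at 0.12 (limma adjusted p = 0.0382, and -0.00 with median-of-ratios scaling).

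For many of the genes this near to 0 the sign turned with how libraries were scaled, and for some also when 1 library was left out. TPM and median-of-ratios scaling move all genes by about the same amount, whereas quantile normalization does not. With median-of-ratios scaling, which put the median of all genes at 0.00, the pump median was -0.11, and 1 pump gene was higher and 11 were lower with an adjusted p under 0.1. Of all genes 18.8% were higher and 19.4% lower with that scaling. With TPM 7 pump genes were higher and none lower, and the shares over all genes were not counted there. The pump genes ran from -0.20 to 0.16 in the former and from -0.02 to 0.33 in the latter, and under no scaling did any pass.

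**Figure D4:**
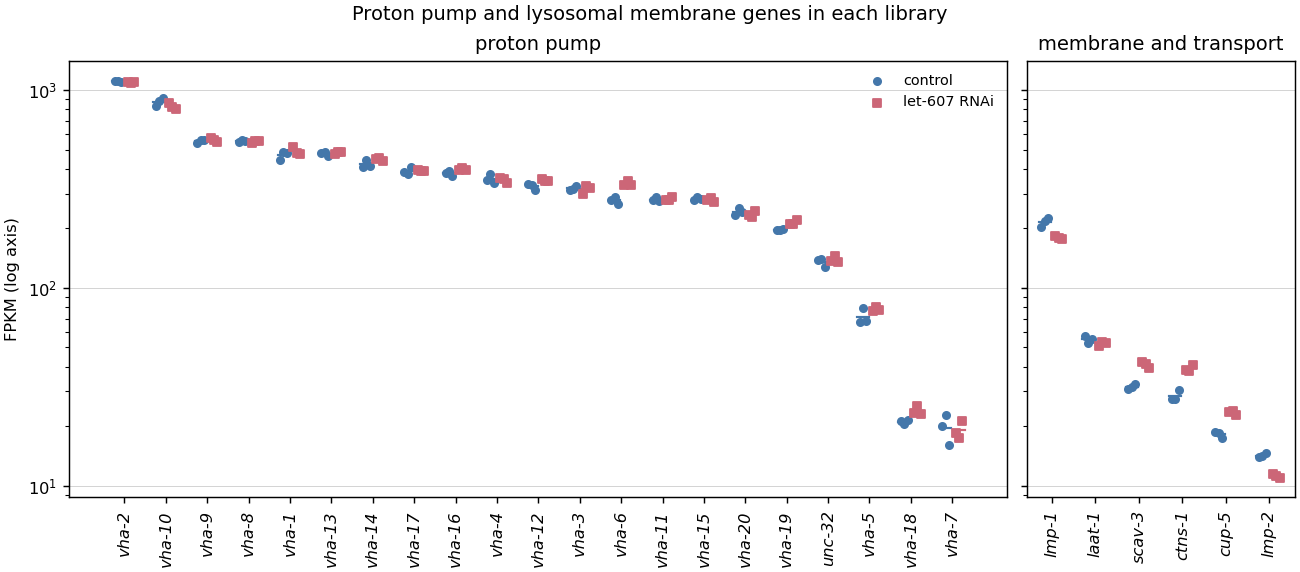
FPKM (log axis) of the 21 proton pump genes (left) and the 6 lysosomal membrane and transport genes (right) in each library, ordered by mean level. Circles are control, squares are let-607 RNAi and short lines are group means. The groups overlap for 16 of 21 pump genes. In the other 5 all squares lie above all circles, with the largest log2 fold change in vha-6.

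Setting each protease against the pump of the same library takes out a scale factor common to all genes. The mean log2 FPKM of the 21 pump genes was 8.02, 8.08 and 8.01 in control and 8.07, 8.08 and 8.08 in let-607 RNAi libraries. Relative to this mean, the difference between groups was -2.01 for asp-13, -1.54 for asp-14, -1.45 for cpz-1, -1.28 for cpr-6, -1.05 for cpr-8 and -0.59 for cpl-1. It was 1.83 for asp-17, 1.13 for cpr-3, 0.73 for cpr-5 and 0.24 for asp-1. In 20 of the 21 tested proteases the groups did not overlap on this scale, and cpr-1 was the exception. The count is the same as on the FPKM scale, where 49.1% of all genes did not overlap. The pump mean hardly differed between groups, so these counts are not separate results. The share of all genes on the pump scale was not computed. The summed FPKM of all proteases over that of the pump was 2.25, 2.26 and 2.21 in control and 1.97, 1.94 and 1.90 after let-607 RNAi.

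**Figure D5:**
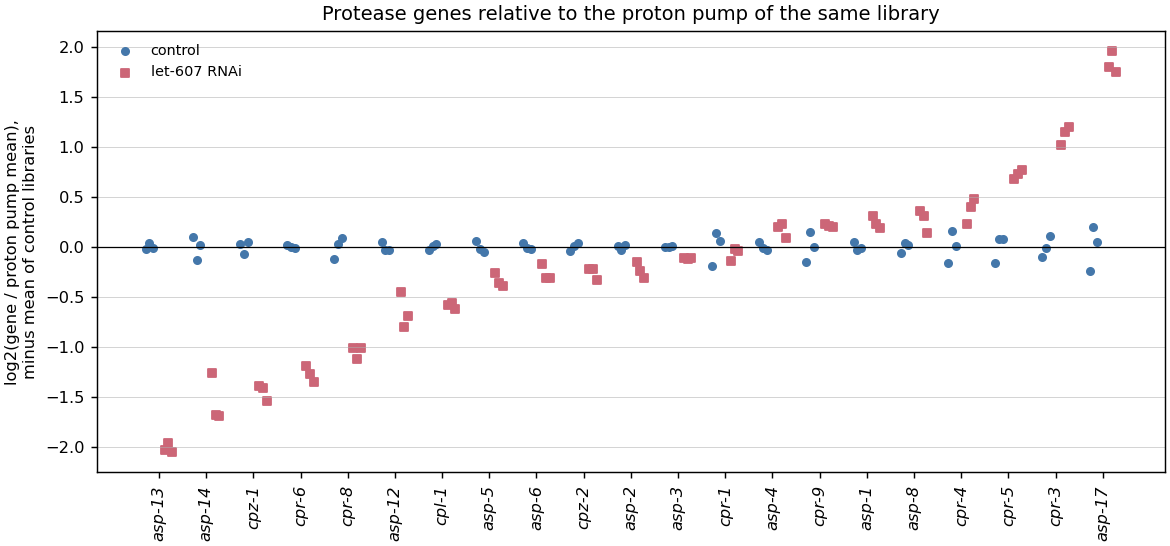
Log2 ratio of each tested protease gene to the mean of the 21 proton pump genes in the same library, with the mean of the 3 control libraries set to 0, ordered by the difference between groups. Circles are control and squares are let-607 RNAi libraries. The let-607 RNAi means run from -2.01 for asp-13 to 1.83 for asp-17.

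The lysosomal membrane and transport genes shifted by small amounts in both directions, and none reached 2-fold. Of the 6, 3 were higher and 2 lower with an adjusted p under 0.1, where 31.7% of all genes were higher and 11.4% lower. With median-of-ratios scaling and with quantile normalization 3 were lower, laat-1 being the third. The lower ones were the LAMP-family genes of the limiting membrane. The gene lmp-1 was at 202.87, 218.47 and 224.40 FPKM in control and at 183.64, 179.60 and 175.99 FPKM after let-607 RNAi (log2 fold change -0.26, limma adjusted p = 0.00660). The gene lmp-2 was at 13.96, 14.04 and 14.58 FPKM against 11.41, 11.21 and 10.98 FPKM (log2 fold change -0.34, limma adjusted p = 0.00492).

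The higher ones were a membrane integrity gene, an ion channel gene and a transporter gene. The gene scav-3, related to mammalian LIMP-2, was at 30.92, 31.43 and 32.70 FPKM in control and at 42.00, 41.06 and 39.44 FPKM after let-607 RNAi (log2 fold change 0.36, limma adjusted p = 0.00193). The mucolipin channel gene cup-5 was at 18.75, 18.52 and 17.42 FPKM against 23.54, 23.91 and 22.87 FPKM (log2 fold change 0.36, limma adjusted p = 0.00315). The cystinosin gene ctns-1, whose product exports cystine, was at 27.39, 27.56 and 30.57 FPKM against 38.65, 38.17 and 40.81 FPKM (log2 fold change 0.46, limma adjusted p = 0.00193). In all 3 every let-607 RNAi value exceeded every control value.

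The lysine and arginine exporter gene laat-1 was at 57.08, 52.88 and 54.90 FPKM in control and at 50.68, 53.28 and 52.63 FPKM after let-607 RNAi. Its groups overlapped (log2 fold change -0.07, limma adjusted p = 0.273). It was at -0.20 with median-of-ratios scaling (limma adjusted p = 0.0140) and at -0.17 with quantile normalization (limma adjusted p = 0.0374). The amino acid exporters ctns-1 and laat-1 thus had values of 0.46 and -0.07.

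Other genes of the pathway were counted from lists. Of 31 other lysosomal hydrolases 30 were tested, 2 fell and none rose, where 1.40% of all genes fell and 3.75% rose. Both that fell were acid sphingomyelinase genes, asm-3 (4.89 ± 0.607 to 0.547 ± 0.287 FPKM, SD, n = 3 each, log2 fold change -3.04, limma adjusted p = 0.000993) and asm-2 (8.81 ± 0.349 to 4.06 ± 0.0529 FPKM, log2 fold change -1.1, limma adjusted p = 0.000150). The acid sphingomyelinase gene asm-1 was level, at 7.55 ± 0.456 and then 7.54 ± 0.441 FPKM (log2 fold change -0.00, limma adjusted p = 0.990). At any size of change, 15 of the 30 were lower and 3 higher with an adjusted p under 0.1, against 11.4% and 31.7% of all genes. With median-of-ratios scaling 17 were lower and 1 higher, against 19.4% and 18.8% of all genes. The median was -0.09 against 0.12 over all genes, and the summed FPKM was 2567 to 2672 in control and 2145 to 2194 after let-607 RNAi.

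None of 24 genes of lysosomal transport, fusion and nutrient sensing passed, where 3.75% of all genes rose and 1.40% fell. At any size of change, 6 of the 24 were higher and none lower with an adjusted p under 0.1, against 31.7% and 11.4% of all genes. Among 9 transcription factors of lysosomal and gut genes, pqm-1 rose from 16.5 ± 2.35 to 53.3 ± 2.48 FPKM (SD, n = 3 each, log2 fold change 1.69, limma adjusted p = 8.36e-05). Of these 9 factors 3 were higher and 1 lower with an adjusted p under 0.1, beside 31.7% and 11.4% of all genes. The TFEB homologue hlh-30, an activator of lysosomal genes, was among the higher ones, at 36.4 ± 1.44 and then 44.7 ± 3.09 FPKM (log2 fold change 0.30, or 0.17 relative to all genes, limma adjusted p = 0.0130). Of the 2 cystatin genes, whose products inhibit cysteine cathepsins, neither passed. The gene cpi-2 was at 271 ± 5.19 and then 362 ± 18.5 FPKM (log2 fold change 0.41, limma adjusted p = 0.000893). The groups of cpi-1 overlapped, at 145 ± 4.13 and then 152 ± 9.27 FPKM (log2 fold change 0.06, limma adjusted p = 0.430).

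Markers of the tissues in a whole worm were read beside these results. Of 10 intestinal markers, mtl-2, a metallothionein gene, fell, 1 was higher and 4 were lower with an adjusted p under 0.1, and the median was -0.04. Of all genes 31.7% were higher and 11.4% lower at this adjusted p, and 3.75% rose and 1.40% fell past 2-fold. With median-of-ratios scaling 1 marker was higher and 8 were lower, against 18.8% and 19.4% of all genes, with a median of -0.17. The summed FPKM of the intestinal markers was 2061 to 2109 in control and 1908 to 2107 after let-607 RNAi. The log2 fold changes were -1.24 for mtl-2, -0.51 for elt-7, -0.41 for inx-16, -0.17 for pept-1, -0.05 for nhx-2, -0.04 for act-5, -0.02 for ges-1, -0.00 for ifb-2, 0.14 for elt-2 and 0.33 for ifc-2. Of 10 sperm markers none passed and 9 were higher with an adjusted p under 0.1, against 31.7% of all genes. Their median was 0.52 and their summed FPKM 1462 to 1628 in control and 2344 to 2459 after let-607 RNAi. With median-of-ratios scaling 7 sperm markers were higher, against 18.8% of all genes, with a median of 0.40. With quantile normalization 7 were higher and the lowest stood at -0.04.

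The median was 0.20 for 10 germline, 0.23 for 10 hypodermal, 0.06 for 10 body wall muscle and 0.20 for 10 neuronal markers, 0.03 for 5 tested pharyngeal gland markers and -0.17 for 3 coelomocyte markers. For 10 genes of the molting cycle it was 0.22, with sums of 1274 to 1472 and 1423 to 1586 FPKM. None of these passed, where 3.75% of all genes rose and 1.40% fell. The part of the tissue makeup and of larval stage in the protease values was not tested.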

How the data were processed

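RNA sequencing of whole L4 worms was analysed in 6 libraries, 3 per group as labelled. The authors deposited FPKM per gene and library. The paper's methods name TopHat and Cufflinks, the submitters' processing notes name fastp, HISAT and RSEM, and both give build WBcel235. Which set made the deposited FPKM is not known. Depth is unknown, since FPKM hold no counts and too few low values were usable to recover reads, so precision rests on the spread between libraries. Of 48197 lines, 1 was broken and left out, and 1418 repeats with the same values were used once. Genes were placed with Ensembl release 115.

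Values were transformed as log2(FPKM + 0.1), and limma 3.58.1 under R 4.3.3 was fitted to the 15453 genes whose mean reached 0.5 FPKM (eBayes with a mean-variance trend, no covariates, Benjamini-Hochberg adjustment over all genes tested). Fold changes are on this scale, which understates changes of low genes. Passing required a log2 fold change beyond 1 in either direction and an adjusted p under 0.1. The fit was tested on simulated data. Ratios within a library were compared by two-sided exact permutation tests, whose smallest p here is 0.1. Summaries were made in Python 3.11.15 (scipy 1.17.1, numpy 2.4.6, pandas 2.3.3).

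The members and lists were chosen with earlier results of these data known, and counts over lists are descriptions. Named were all passing members, the 3 most abundant and the 3 most changed of each role, a fixed list of members, and passing genes of the other lists. The genes asp-5, asp-8, asp-12 and cpr-9 were named after their values were seen, to complete the account of the proteases. Also named after their values were seen were asm-1, hlh-30, cpi-1, cpi-2 and the intestinal markers that did not pass. As alternatives, the fit was repeated with a pseudocount of 1 or 0.01, without the filter on low values or with a mean of at least 5 FPKM, after quantile normalization, TPM (equal sums) or median-of-ratios scaling, with the replicate number as a block, with eBayes lacking the trend, at an adjusted p of 0.05, with any fold change allowed, and without each library in turn. Scaling by the proton pump subunits was added after seeing the data.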

Additional observations from a re-analysis of the deposited data

How the results depend on the processing

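With 16 other settings, the 7 passing members apart from cpr-8 passed in every fit, and cpr-8 ended just inside 2-fold in 5. Without a minimum fold change, 13 members were lower and 15 higher, and of all genes 1759 were lower and 4892 higher, against 216 and 579. With a mean of at least 5 FPKM, 124 genes fell and 275 rose. The median of the aspartic proteases was -0.00 with no filter, -0.14 with TPM, -0.31 with median-of-ratios scaling and -0.10 with quantile normalization. That of the cysteine cathepsins was -0.03 with no filter and -0.25 with median-of-ratios scaling. That of the pump was 0.07 with TPM and -0.11 with median-of-ratios scaling. That of the membrane genes was 0.19 with TPM, 0.02 with median-of-ratios scaling and 0.01 with quantile normalization. The protease median minus the pump median was -0.21, -0.03 with no filter and -0.11 with quantile normalization. With no filter the untested members near 0 enter the medians, and asp-1, asp-2, asp-4, asp-6, cpr-4, cpz-2, vha-12 and vha-18 had limma adjusted p of 0.110 to 0.420. The causes of the other shifts were not tested.

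In each fit that turned a sign, that gene had an adjusted p of at least 0.0599 there. With TPM, cpr-1 was at 0.02, vha-17 at 0.05, vha-2 and vha-3 at 0.03, vha-7 at 0.01 and vha-8 at 0.04. With median-of-ratios scaling, unc-32 was at -0.08, vha-1 at -0.06, vha-12 at -0.02, vha-13 at -0.10, vha-14 at -0.04, vha-19 at -0.00 and vha-9 at -0.11. With quantile normalization, asp-3 and vha-2 were at 0.03 and unc-32 at -0.01. With scaling by the pump, unc-32 was at -0.00, vha-13 at -0.02 and vha-9 at -0.03. Leaving out 1 library gave -0.14 to 0.06 for cpr-1, -0.00 to 0.07 for unc-32, -0.02 to 0.03 for vha-17, -0.05 to 0.02 for vha-3, -0.17 to 0.08 for vha-7 and -0.01 to 0.03 for vha-9. Of the 39 named members, 25 had no such turn.

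Same-numbered libraries showed no shared deviation from their group means (correlations -0.058, 0.003 and -0.018). Differently numbered ones gave -0.068 to 0.085. The labels state no pairing, and these correlations cannot exclude one. With the replicate block the same 7 members passed, 5 lower and 2 higher, and at any size of change vha-18 (adjusted p = 0.104, limma) and vha-12 (0.110) were no longer under 0.1. Depth is unknown, so counting error of scarce genes such as asp-17 could not be given.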
